A study of Mus musculus with 2 samples.

Results

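Nfkbia, Nfkbiz, Tnfaip3, Relb, Traf1 and Sod2 are 6 genes that NF-kappaB induces and that, apart from Sod2, act back on the pathway. They were taken by symbol from the 13289 genes listed in both deposited single-cell count matrices, and all 6 were found in both. The Gata3KO library came from mice of the strain C57BL/6:Cx3cr1CRExGata3fl/fl, in which Cre under the control of Cx3cr1, a gene of monocytes and macrophages, deletes the floxed Gata3 gene. The Wt library came from C57BL/6 mice, for which no further allele is named. In both, the tibialis anterior, a muscle of the shin, was injured with 50 µl of 10 µM cardiotoxin, a snake venom toxin that kills muscle fibres, and live CD45+ CD11b+ Ly6G- cells were sorted at day 4 and loaded at 8000 cells. Each genotype has 1 library, so no difference has a replicate check and none was tested. The intervals below are 95% intervals that cover counting error only. How many mice each library holds is not given in the sources used here. No Cre allele is named for the Wt mice, so an effect of that allele and one of Gata3 loss cannot be told apart.

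NF-kappaB dimers are held in the cytoplasm by inhibitor proteins until signals from Toll-like, interleukin 1 or tumour necrosis factor receptors switch on the kinases that lead to the inhibitors' destruction. The freed dimers enter the nucleus and switch on inflammatory genes together with their own brakes. In injured muscle, monocytes arriving from blood give an early inflammatory phase and then become macrophages that clear debris and help the fibres to regrow. Nfkbia encodes the inhibitor IkappaB-alpha, which recaptures the dimers. Nfkbiz encodes IkappaB-zeta, a nuclear cofactor that is needed for a second wave of target genes. Tnfaip3 encodes A20, a ubiquitin-editing enzyme that shuts off signalling upstream of the kinases. Relb encodes a subunit of the non-canonical pathway with a known role in dendritic cells, Traf1 an adaptor of the tumour necrosis factor receptor family, and Sod2 the mitochondrial superoxide dismutase, which is a target gene and not a regulator of the pathway.

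The genes lie apart from each other in the mouse genome, and no other annotated gene overlaps any of them in GENCODE M21 (GRCm38). Nfkbia (ENSMUSG00000021025) spans chr12:55489410-55492647, Nfkbiz (ENSMUSG00000035356) chr16:55811375-55838899, Tnfaip3 (ENSMUSG00000019850) chr10:19000910-19015657, Relb (ENSMUSG00000002983) chr7:19606217-19629438 and Traf1 (ENSMUSG00000026875) chr2:34941750-34961772, all on the minus strand. Sod2 (ENSMUSG00000006818) spans chr17:13006846-13040063 on the plus strand.

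RefSeq promoter sequences of the same build (GRCm38.p6), 250 bases before to 50 bases after the start site, were at hand for 4 of the 6 genes, Nfkbia, Tnfaip3, Traf1 and Sod2. They are shown because the counts below put Nfkbia and Tnfaip3 together across cell states and Traf1 and Sod2 apart from them. Each runs 5′ to 3′ on the gene's own strand, and capitals mark matches to the 10-base kappaB consensus on either strand.
Nfkbia, chr12:55492598-55492897, minus strand: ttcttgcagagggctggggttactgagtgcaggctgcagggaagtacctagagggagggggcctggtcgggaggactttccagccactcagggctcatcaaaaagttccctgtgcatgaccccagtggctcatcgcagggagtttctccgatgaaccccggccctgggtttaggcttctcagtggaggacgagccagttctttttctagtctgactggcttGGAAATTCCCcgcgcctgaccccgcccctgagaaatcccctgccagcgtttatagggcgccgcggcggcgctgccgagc
Tnfaip3, first start site, chr10:19015361-19015660, minus strand: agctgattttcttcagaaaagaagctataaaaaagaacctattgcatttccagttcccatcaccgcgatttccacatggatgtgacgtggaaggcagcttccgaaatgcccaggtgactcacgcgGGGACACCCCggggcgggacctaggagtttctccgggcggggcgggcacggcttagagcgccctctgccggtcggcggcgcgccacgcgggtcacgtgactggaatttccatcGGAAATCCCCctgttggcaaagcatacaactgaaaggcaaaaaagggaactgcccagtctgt
Sod2, chr17:13007589-13007888, plus strand: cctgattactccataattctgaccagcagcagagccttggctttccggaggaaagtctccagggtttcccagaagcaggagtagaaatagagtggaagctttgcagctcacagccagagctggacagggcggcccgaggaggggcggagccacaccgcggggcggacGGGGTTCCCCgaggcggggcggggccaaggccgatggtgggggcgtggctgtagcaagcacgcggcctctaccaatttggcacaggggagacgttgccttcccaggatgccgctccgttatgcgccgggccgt
Traf1, chr2:34961723-34962022, minus strand: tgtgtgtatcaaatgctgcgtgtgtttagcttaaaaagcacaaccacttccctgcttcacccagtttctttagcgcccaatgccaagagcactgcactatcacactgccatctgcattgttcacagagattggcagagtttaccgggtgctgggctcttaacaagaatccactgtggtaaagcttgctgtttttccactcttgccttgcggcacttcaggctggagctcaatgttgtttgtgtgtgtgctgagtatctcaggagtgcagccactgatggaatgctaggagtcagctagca
The Nfkbia window held 1 match, which began 29 bases before the start site, and the Tnfaip3 window held 2, which began 125 and 12 bases before it. The Sod2 window held 1 match, 83 bases before the start site, and the Traf1 window held none. Of 32851 promoters in the table, 4.51% held such a match. All of these matches also fit the looser GGGNNNNNCC on one strand, which 50.8% of the promoters held. The AP-1 motif TGANTCA was found in the Tnfaip3 window, 136 bases before the start site, and not in the other 3 (7.81% of all promoters). A second Tnfaip3 start site in the table had no kappaB match. These are matches of letters and not measured binding sites.

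The Gata3KO library held 3434 barcodes and 19422237 UMIs, and the Wt library held 3290 barcodes and 15392330 UMIs. After removal of barcodes with fewer than 500 UMIs, fewer than 200 genes or more than 10% mitochondrial UMIs, 650 Gata3KO cells (18.9%) and 990 Wt cells (30.1%) were kept, with medians of 13716 and 5836 UMIs. The 2 libraries shared 2 cell barcodes, neither kept in both. Gata3 itself could not check the labels, with 1 UMI in kept Gata3KO cells and 4 in kept Wt cells. Cells of both libraries were clustered together, with the 6 genes and the other NF-kappaB genes listed below left out of the genes used to cluster.

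Monocytes and macrophages made up 395 Gata3KO cells and 411 Wt cells in 3 clusters, with medians of 16729 UMIs in Gata3KO and 8669 in Wt, each named from markers and called here by its leading genes. Gpnmb macrophages, with Gpnmb and Fabp5 as leading genes and lipid-handling macrophage-like by markers, numbered 192 Gata3KO and 128 Wt cells. Cxcl2-Arg1 macrophages also carried lipid-handling macrophage markers but were led by Cxcl2, Arg1, Gdf15, Hmox1 and Cxcl1, and numbered 155 Gata3KO and 33 Wt cells; the 2 chemokine genes among these had not been used to cluster. Plac8-Ly6c2 phagocytes, interferon-responding phagocyte-like and led by Plac8, Ly6c2 and Cxcl10, numbered 48 Gata3KO and 250 Wt cells. The Gata3KO class was therefore richer in Cxcl2-Arg1 macrophages (39.2% of its cells, against 8.03% in Wt) and the Wt class in Plac8-Ly6c2 phagocytes (12.2% of Gata3KO cells and 60.8% of Wt cells).

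Outside the class lay cycling cells, dendritic cells, a cluster of shallow cells and a cluster of muscle transcripts. A cell-cycle cluster split at a finer resolution into cycling cells with Pf4 and Mrc1, 70 in Gata3KO and 33 in Wt, and a collagen-rich part led by Col1a1 and Col3a1, 22 in Gata3KO and 34 in Wt. Cell cycle markers were higher in the collagen-rich part, at 3581 summed CPM in Gata3KO and 4387 in Wt. In the cells with Pf4 and Mrc1 they summed to 655 CPM in Gata3KO and 1375 CPM in Wt. Fibroblasts, the usual source of these collagens, lack CD45 and CD11b, and the collagen-rich cells carried fibroblast markers at 9358 summed CPM in Gata3KO and 7630 in Wt beside macrophage markers at 14987 and 9082. Cd209a dendritic cells, conventional dendritic cell 2-like, numbered 30 Gata3KO and 100 Wt cells. Mature dendritic cells with Ccr7 and Fscn1 numbered 9 in Gata3KO and 70 in Wt, so Gata3KO gives no dependable level there. A cluster that stayed unnamed, with medians of 3551 UMIs in Gata3KO and 2444 in Wt, held 89 and 226 cells.

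In all monocytes and macrophages pooled, Nfkbia, Nfkbiz and Tnfaip3 were higher in the Gata3KO library, Traf1 and Relb were lower, and the Sod2 interval included 0. Levels are CPM, the UMIs of a gene scaled to a fixed total of UMIs of the same cells. Nfkbia stood at 774 CPM in Gata3KO and 529 CPM in Wt, a log2 ratio of 0.55 (interval 0.48 to 0.62). Nfkbiz stood at 136 CPM in Gata3KO and 102 CPM in Wt (0.41, 0.25 to 0.58), and Tnfaip3 at 102 CPM and 72.3 CPM (0.50, 0.30 to 0.69). All 3 intervals lay above 0, yet none of the 3 ratios passed 1.5-fold.

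Traf1 stood at 32.4 CPM in Gata3KO and 87.6 CPM in Wt, a log2 ratio of -1.44 (-1.68 to -1.19). Relb stood at 32.8 CPM in Gata3KO and 47.8 CPM in Wt (-0.54, -0.82 to -0.26). Sod2 stood at 99.1 CPM in Gata3KO and 101 CPM in Wt (-0.03, -0.21 to 0.14). With 1 CPM added to both sides, 1 of the 6 genes, Traf1, passed 1.5-fold, and of the 5882 genes at 20 CPM or more in 1 library 12.5% did, 4.85% higher and 7.68% lower in Gata3KO. The median log2 ratio was 0.19 over the 6 genes and 0.04 over all genes tested. Summed markers of conventional dendritic cells 2 in this class were 217 CPM in Gata3KO and 525 CPM in Wt, and those of mature dendritic cells were 211 CPM and 186 CPM. Cells with a UMI of a short set of these markers (Ccr7, Fscn1, Ccl22, Cd209a and Flt3, where listed in both libraries) were then left out. That gave -1.48 for Traf1 and -0.49 for Relb, and cells with only other markers of these lists stayed in. Ratios under alternative settings, here and below, have 1 CPM added unless an interval is given. With 1 CPM added and no cell left out, Traf1 was at -1.41 and Relb at -0.53. Early-response genes, an immediate programme that cell isolation can also set off, summed to 7139 CPM in Gata3KO and 5754 CPM in Wt, and their part in the result was not tested.

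Counted as cells, with every cell thinned to 2000 UMIs, a Nfkbia UMI was found in 186 of 367 Gata3KO cells (50.7%) and 143 of 388 Wt cells (36.9%), against 81.3% and 65.7% without thinning. A Tnfaip3 UMI was found in 15.5% of thinned Gata3KO cells (12.0 to 19.6) and 8.51% of thinned Wt cells (5.93 to 11.7), and a Traf1 UMI in 6.54% and 14.2%. For Nfkbiz, Relb and Sod2 the thinned shares lay close together, at 16.9%, 7.63% and 17.4% in Gata3KO and 17.3%, 9.28% and 15.7% in Wt. Thinned to 1000 UMIs, the Tnfaip3 shares were 8.79% in Gata3KO (6.16 to 12.1) and 6.97% in Wt (4.68 to 9.91), with intervals that overlapped. At that depth Nfkbia stood at 34.9% in Gata3KO and 23.1% in Wt, and Traf1 at 4.13% and 9.45%.

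In both libraries Nfkbia, Nfkbiz and Tnfaip3 differed widely between macrophage states. Among the states of the joint clustering, all 3 were highest in Cxcl2-Arg1 macrophages. The monocyte-like cells led by Hp and Vcan, described below, are not among these states. Within Cxcl2-Arg1 macrophages the 3 genes were lower in Gata3KO than in Wt, the opposite of the pooled class. Nfkbia there was 1537 CPM in Gata3KO (1492 to 1583) and 2155 CPM in Wt (2034 to 2281), a log2 ratio of -0.49 (-0.58 to -0.39). Nfkbiz was 253 CPM in Gata3KO and 316 CPM in Wt (-0.32, -0.56 to -0.08). Tnfaip3 was 200 CPM in Gata3KO and 325 CPM in Wt (-0.70, -0.94 to -0.45). For Nfkbia and Tnfaip3 these were also the 2 highest levels in the order of all 17 state and library levels, each apart from the next by its interval, while for Nfkbiz neighbouring intervals overlapped.

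**Figure D1:**
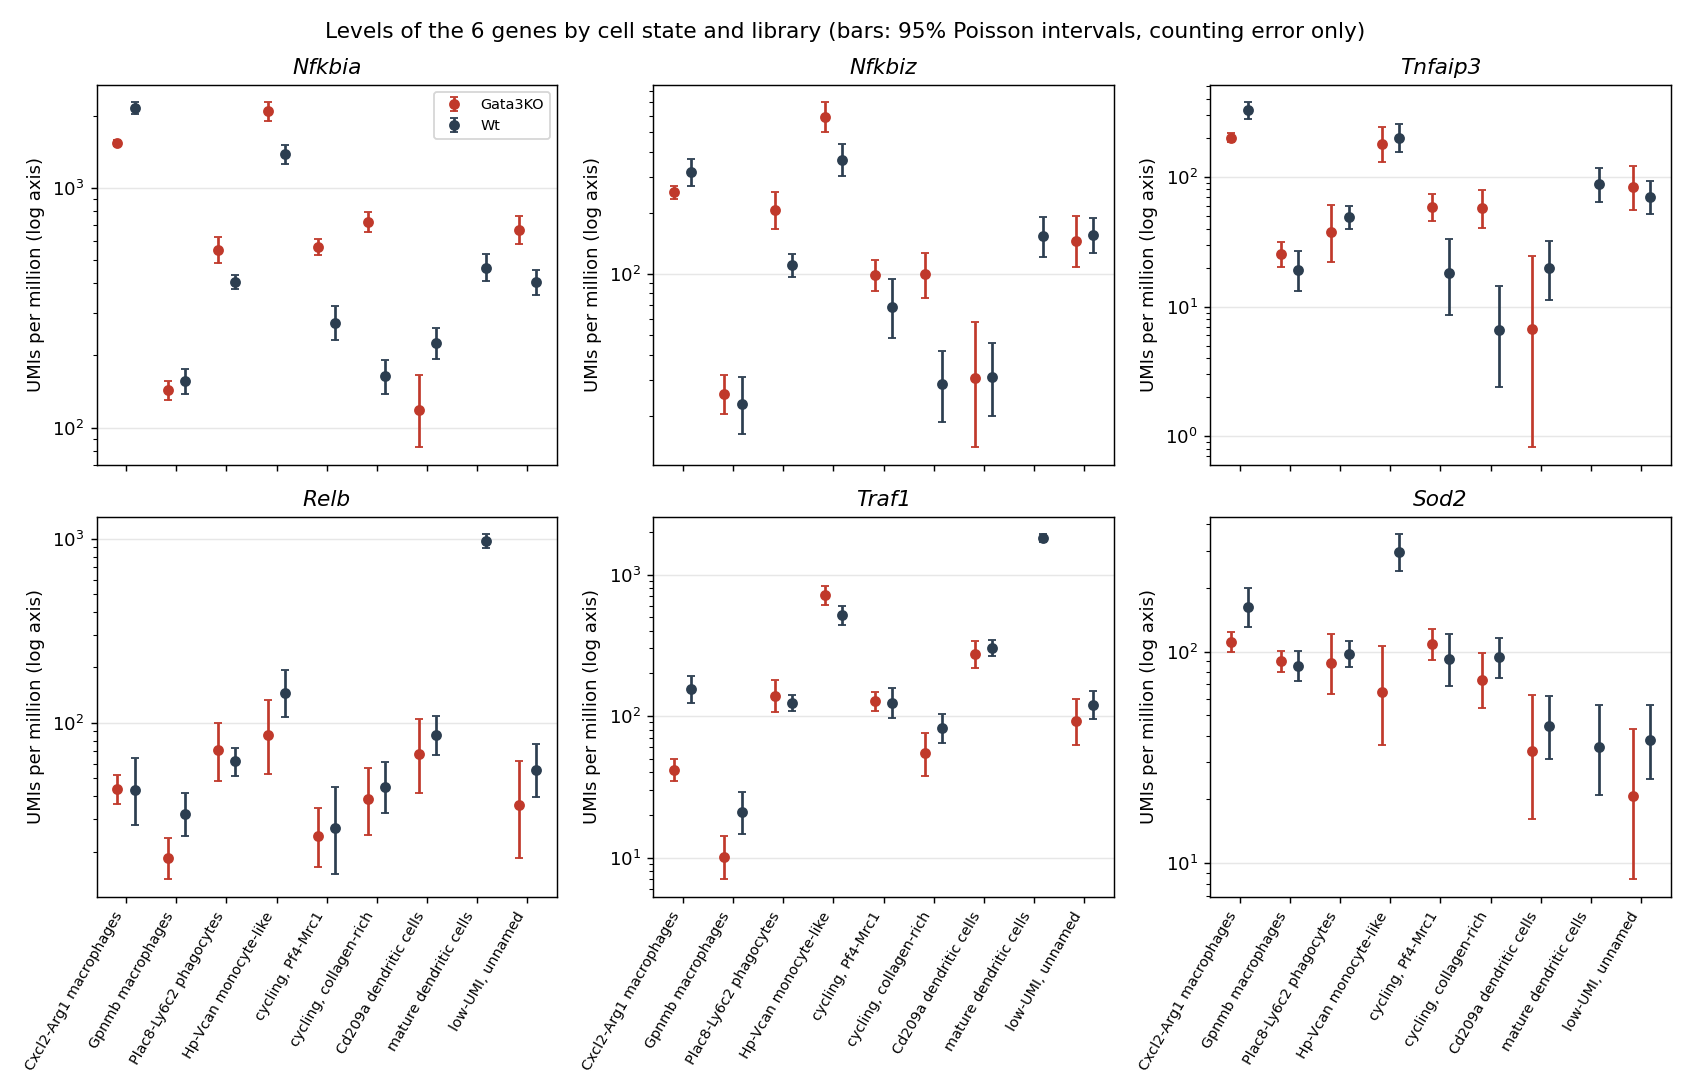
CPM of each gene (log axis) by cell state, Gata3KO left and Wt right in each pair; points are sums over the cells of 1 library and bars are 95% Poisson intervals, and states under 20 cells are not drawn. Nfkbia, Nfkbiz and Tnfaip3 are high in Cxcl2-Arg1 macrophages (Nfkbia 1537 CPM in Gata3KO and 2155 in Wt) and low in Gpnmb macrophages (143 and 156), while Relb and Traf1 peak in Wt mature dendritic cells (969 and 1806 CPM).

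In the same state Traf1 was 41.5 CPM in Gata3KO and 155 CPM in Wt (-1.90, -2.31 to -1.49), and Sod2 was 111 CPM in Gata3KO and 163 CPM in Wt (-0.55, -0.89 to -0.20). The Relb interval included 0, at 43.6 CPM in Gata3KO and 43.4 CPM in Wt (0.01, -0.63 to 0.70). Here 2 of the 6 genes, Tnfaip3 and Traf1, passed 1.5-fold lower in Gata3KO, and 10.5% of 5832 tested genes did so, against 13.1% higher (23.6% either way). The Wt side rests on 33 cells, and its cell with the most Nfkbia held 12.6% of that gene's UMIs. Leaving out the top cell of each library gave -0.39 for Nfkbia. At resolution 0.3 this state merged with Gpnmb macrophages and with the cycling cells with Pf4 and Mrc1. The merged cells had 0.45 for Nfkbia, 0.38 for Tnfaip3 and -0.49 for Traf1. With up to 20% mitochondrial UMIs Tnfaip3 was at -0.31, short of 1.5-fold, and Traf1 at -1.24. Mature dendritic cell markers summed to 229 CPM in Gata3KO and 456 CPM in Wt in this state. With cells carrying the short set of dendritic cell markers left out, Traf1 was at -1.87. Interferon-responding phagocyte markers summed to 428 CPM in Gata3KO and 1893 CPM in Wt, and their part in the result was not tested.

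Per cell, the highest Nfkbia counts of this state were in Wt. An Nfkbia UMI was found in 98.1% of Gata3KO and 93.9% of Wt Cxcl2-Arg1 macrophages, and after thinning every cell to 2000 UMIs in 82.2% and 87.9%. Cells held on average 28.9 Nfkbia UMIs in Gata3KO and 36.1 in Wt, and the 90th percentile over cells was 64.2 and 117, at median depths of 18187 UMIs in Gata3KO and 14362 in Wt. The early-response genes summed to 11249 CPM in Gata3KO and 12319 CPM in Wt in this state. Their part in the result was not tested.

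Gpnmb macrophages were among the states lowest in Nfkbia and Nfkbiz, with intervals that overlapped those of other low states. Nfkbia was 143 CPM in Gata3KO and 156 CPM in Wt (-0.12, -0.34 to 0.10), Nfkbiz 25.6 and 22.8 CPM, and Tnfaip3 25.3 and 19.3 CPM. All 3 intervals included 0. Relb was lower, at 18.4 CPM in Gata3KO and 32.1 CPM in Wt (-0.80, -1.35 to -0.25), and so was Traf1, at 10.1 CPM and 21.01 CPM (-1.06, -1.78 to -0.34). These 2 of the 6 genes passed 1.5-fold, and 9.04% of 5807 tested genes did, 3.41% higher and 5.63% lower in Gata3KO. The Traf1 values rest on 34 UMIs in Gata3KO and 36 in Wt, with 29.4% and 19.4% of them in 1 cell. Neither call held under every alternative. At resolution 0.3 these macrophages merged with Cxcl2-Arg1 macrophages and the cycling cells with Pf4 and Mrc1, and the merged cells had Relb at -0.11 and Traf1 at -0.49. With every cell weighted alike Relb and Traf1 were at -0.55 and -0.35, and with up to 20% mitochondrial UMIs Traf1 was at -2.42. These alternatives have 1 CPM added, unlike the -0.80 and -1.06 above, so a part of each shift comes from the measure. Interferon-responding phagocyte markers summed to 480 CPM in Gata3KO and 1915 CPM in Wt here, and their part in the result was not tested.

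Plac8-Ly6c2 phagocytes held middling levels and differed the other way. Nfkbia was 552 CPM in Gata3KO and 407 CPM in Wt (0.44, 0.23 to 0.65), and Nfkbiz was 206 CPM and 111 CPM (0.90, 0.53 to 1.25). The remaining 4 genes, Tnfaip3, Relb, Traf1 and Sod2, had intervals that included 0. Of the 6 genes, 1, Nfkbiz, passed 1.5-fold, and of 5957 tested genes 24.3% did, 11.0% higher and 13.3% lower in Gata3KO. The Gata3KO side has 48 cells, of which 1 held 20.9% of the Nfkbia UMIs, and without the top cell of each library the Nfkbia ratio was 0.19 and the Nfkbiz ratio 0.77. Over the alternatives the Nfkbiz ratio lay between 0.56 at resolution 0.3, short of 1.5-fold, and 1.70 after thinning to 2000 UMIs. At resolution 0.3 the matching cluster also held the unnamed shallow cells. Early-response genes summed to 8424 CPM in Gata3KO and 6211 CPM in Wt here, and 9 of 19 measured passed 1.5-fold higher, Fos, Junb and Dusp1 among them. Interferon-responding phagocyte markers, by which the cluster was named, summed to 1961 CPM in Gata3KO and 5029 CPM in Wt. The part of either in the result was not tested.

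**Figure D2:**
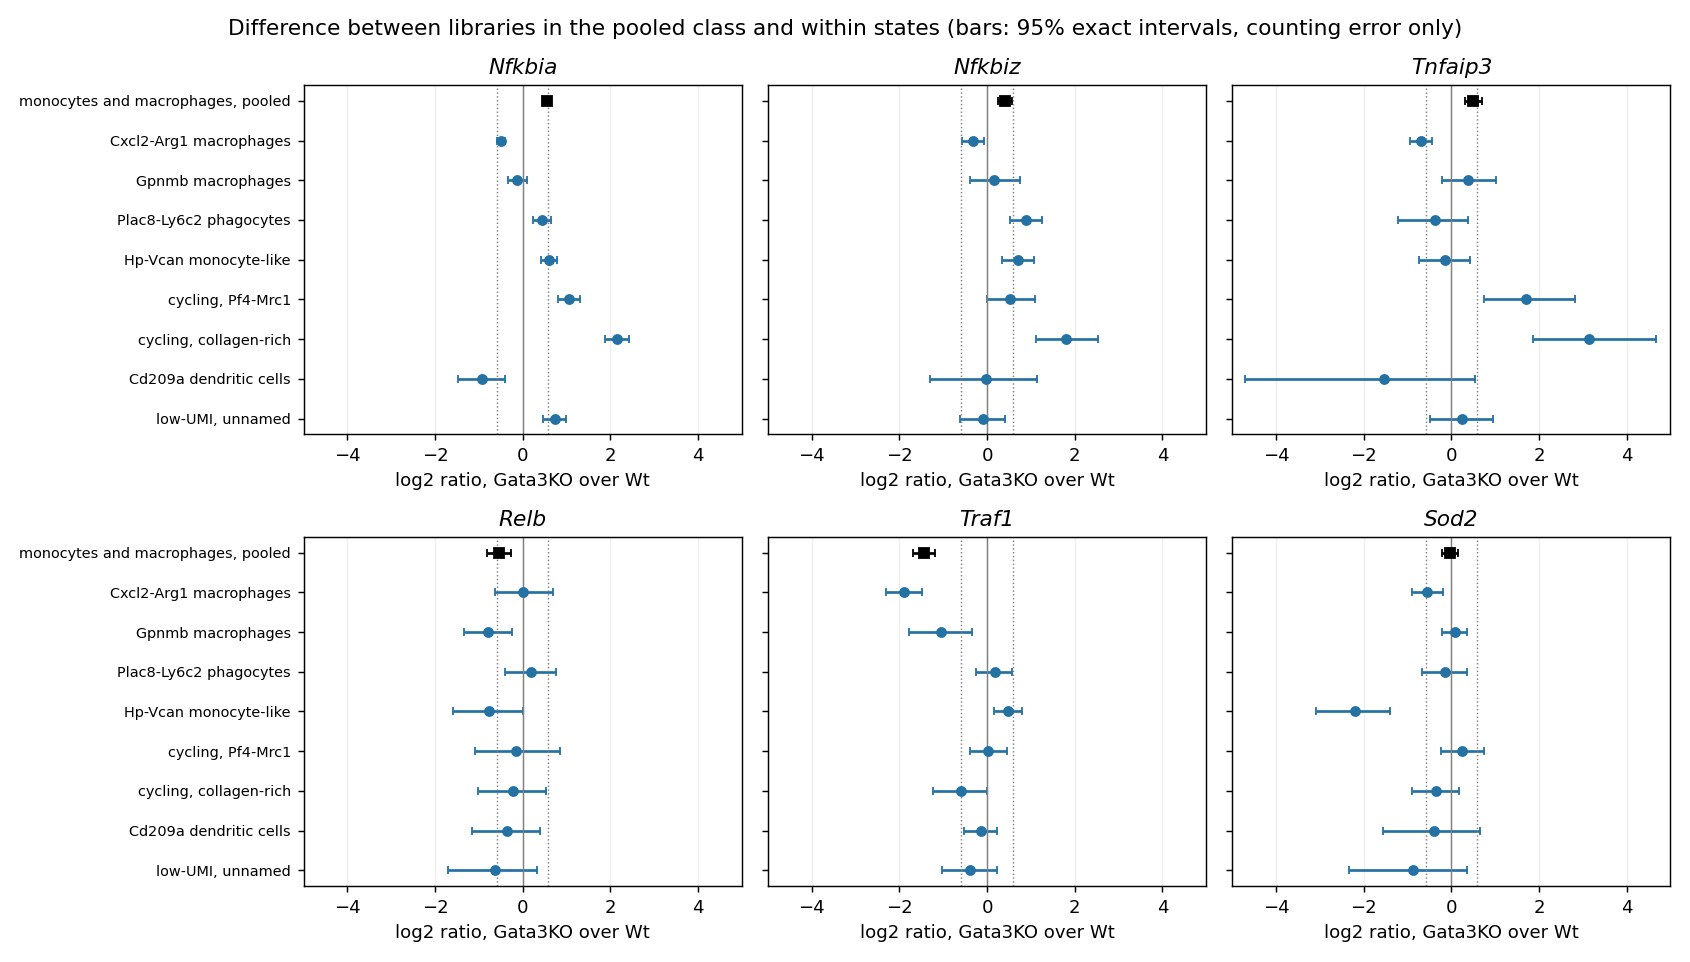
Log2 ratio of Gata3KO over Wt for each gene, in the pooled class (square) and within states (circles), with 95% exact intervals for counting error; dotted lines mark 1.5-fold. Nfkbia is at 0.55 in the pooled class but at -0.49, -0.12 and 0.44 within its 3 clusters, while Traf1 is at -1.44 pooled and at -1.90, -1.06 and 0.17 within them.

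The 3 clusters took different shares of the 2 libraries, and the pooled values weight them by those shares. Cxcl2-Arg1 macrophages supplied 86.0% of the Nfkbia UMIs of the class in Gata3KO and 51.5% in Wt. They supplied 80.4% and 39.1% of the Nfkbiz UMIs, and 85.1% and 57.0% of the Tnfaip3 UMIs. Of all UMIs of the class they held 43.3% in Gata3KO and 12.7% in Wt. Plac8-Ly6c2 phagocytes supplied 28.9% of the Traf1 UMIs of the class in Gata3KO and 68.1% in Wt, and 14.5% and 62.2% of the Relb UMIs. Of all UMIs of the class these phagocytes held 6.71% in Gata3KO and 48.2% in Wt. The mean of the 3 within-cluster log2 ratios, which gives each cluster the same weight, was -0.06 for Nfkbia, -0.23 for Tnfaip3 and 0.24 for Nfkbiz. Traf1 stayed lower at -0.90, while Relb came to -0.19 and Sod2 to -0.21. Whether the larger number of Cxcl2-Arg1 macrophages in Gata3KO goes with the genotype or with the library cannot be told apart.

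**Figure D3:**
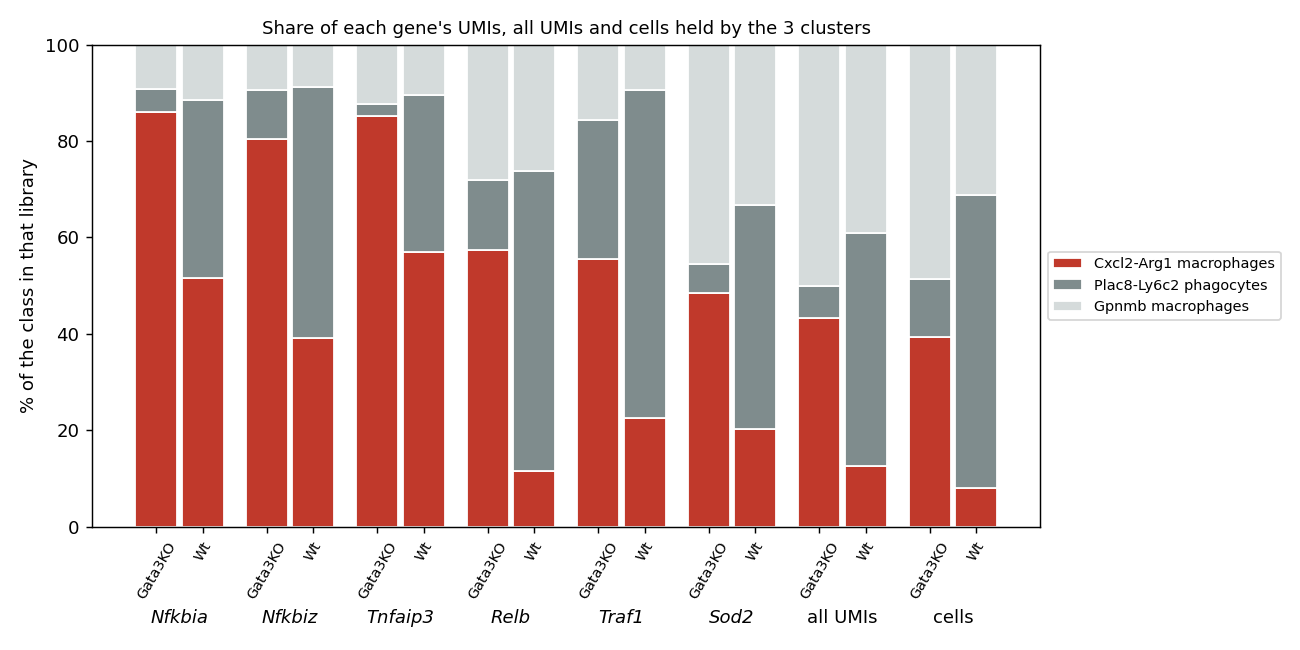
Share (%) of each gene's UMIs, of all UMIs and of cells that the 3 clusters hold within monocytes and macrophages, Gata3KO bar left and Wt bar right for each item. Cxcl2-Arg1 macrophages hold 39.2% of Gata3KO and 8.03% of Wt cells but 86.0% and 51.5% of Nfkbia UMIs, whereas Sod2 follows the share of all UMIs more closely (48.4% and 20.3%, against 43.3% and 12.7%).

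Relb and Traf1 were highest in dendritic cells. In Wt mature dendritic cells Relb was 969 CPM (885 to 1058) and Traf1 was 1806 CPM (1691 to 1926), each the highest of the 17 levels and apart from the next. The next highest of the 17 were both in the 78 shallow cells of the Wt Cd209a cluster, Relb at 131 CPM and Traf1 at 519 CPM. The monocyte-like cells led by Hp and Vcan, described below, are not among the 17 levels, and their Traf1 in Gata3KO was above 519 CPM. The 9 Gata3KO mature dendritic cells held 82 Relb UMIs (1215 CPM, 966 to 1508) and 110 Traf1 UMIs (1630 CPM, 1339 to 1964), with 31.7% of the Relb UMIs in 1 cell. After thinning to 2000 UMIs, a Traf1 UMI was found in 57 of 58 Wt mature dendritic cells (98.3%) and a Relb UMI in 46 (79.3%), from a median of 8606 UMIs. In Gpnmb macrophages, thinned the same way from medians of 19298 UMIs in Gata3KO and 10511 in Wt, a Traf1 UMI was found in 1.74% and 5.65% of cells.

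Over all kept cells, Relb was 42.4 CPM in Gata3KO and 110 CPM in Wt (-1.38, -1.55 to -1.21) and Traf1 was 83.2 CPM and 233 CPM (-1.48, -1.60 to -1.36). Mature dendritic cells supplied 82 of 410 Relb UMIs in Gata3KO and 494 of 919 in Wt, and 110 of 804 and 921 of 1935 Traf1 UMIs. In this comparison 4 of the 6 genes passed 1.5-fold, Nfkbia and Tnfaip3 higher and Relb and Traf1 lower in Gata3KO, and 15.8% of 6133 tested genes did (6.52% higher and 9.29% lower).

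Cd209a dendritic cells had the lowest Nfkbia of all levels in Gata3KO, at 119 CPM against 225 CPM in Wt (-0.92, -1.49 to -0.39), though the Gata3KO interval overlapped that of Gpnmb macrophages. Traf1 was high in both, at 274 CPM in Gata3KO and 304 CPM in Wt (-0.15, -0.53 to 0.22). The intervals of Nfkbiz, Relb and Sod2 included 0, and Tnfaip3, with 2 UMIs in Gata3KO and 16 in Wt, was under the 20 CPM asked for. Of the 5 genes measured, 1, Nfkbia, passed 1.5-fold, and of 6224 tested genes 30.2% did, 12.4% higher and 17.8% lower in Gata3KO. The Nfkbia value depends on where the cluster is drawn: taken whole, with 61 Gata3KO and 186 Wt cells, it gave 840 CPM and 381 CPM (1.14, 0.94 to 1.34), and 24.6% of genes passed 1.5-fold there, 8.69% higher and 15.9% lower in Gata3KO. The whole cluster also held 15 Gata3KO and 8 Wt cells that a finer resolution assigned to a cluster led by Hp and Vcan.

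That finer cluster, monocyte-like by its markers and also led by Clec4e and Nr4a2, held 20 Gata3KO and 33 Wt cells, of which 5 and 24 counted among the Plac8-Ly6c2 phagocytes. Nfkbia was 2086 CPM in Gata3KO (1904 to 2280) and 1380 CPM in Wt (1257 to 1511), and Nfkbiz was 593 CPM and 364 CPM. Cxcl2-Arg1 macrophages, a state with other leading genes, had Nfkbia at 1537 CPM in Gata3KO and 2155 CPM in Wt. Nfkbia in the Gata3KO cells led by Hp and Vcan was thus above the former, and its interval held the latter. Their Nfkbiz was above that of Cxcl2-Arg1 macrophages in both libraries (253 CPM in Gata3KO and 316 CPM in Wt, 271 to 367), though in Wt within that interval. Traf1 was 718 CPM in Gata3KO and 516 CPM in Wt. Sod2 was 64.5 CPM in Gata3KO and 295 CPM in Wt (-2.19, -3.08 to -1.40). Of the 6 genes, 2 passed 1.5-fold higher and 2 lower, and of 6077 tested genes 48.2% did so either way, 23.5% higher and 24.7% lower, so that the 4 genes are not far from the share of all genes. The cells of the 2 libraries were unlike in other genes too, with monocyte markers at 2641 summed CPM in Gata3KO and 10981 in Wt and conventional dendritic cell 2 markers at 3346 and 1564.

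In cycling cells with Pf4 and Mrc1, Nfkbia and Tnfaip3 were higher in Gata3KO. Nfkbia was 568 CPM in Gata3KO and 274 CPM in Wt (1.05, 0.80 to 1.31), and Tnfaip3 was 58.3 CPM and 18.0 CPM (1.69, 0.74 to 2.81). These were the 2 of 6 genes past 1.5-fold higher, and 13.4% of 6045 tested genes passed that way, against 11.9% lower (25.3% either way). The Wt cells held 10 Tnfaip3 UMIs in all, and 31.6% of their Nfkbia UMIs came from 1 cell. Without the top cell of each library the ratios were 1.30 for Nfkbia and 1.63 for Tnfaip3. With every cell thinned to 2000 UMIs the Nfkbia ratio was 0.02, and with every cell weighted alike the Tnfaip3 ratio was 0.68. The cells of the 2 libraries differed in other genes too: cell cycle markers summed to 655 CPM in Gata3KO and 1375 CPM in Wt, tissue-resident macrophage markers to 4501 and 1792 CPM, and interferon-responding phagocyte markers to 312 and 2064 CPM. Their part in the result was not tested.

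The collagen-rich cells had Nfkbia, Nfkbiz and Tnfaip3 higher in Gata3KO by larger ratios. Nfkbia was 723 CPM in Gata3KO and 163 CPM in Wt (2.14, 1.87 to 2.42), Nfkbiz 99.3 CPM and 28.5 CPM (1.80, 1.12 to 2.52), and Tnfaip3 57.7 CPM and 6.58 CPM (3.13, 1.87 to 4.67). These 3 of the 6 genes passed 1.5-fold higher and Traf1 passed lower, while 16.6% of 7114 tested genes were past it higher and 14.2% lower (30.9% either way). Of the 451 Nfkbia UMIs in the 22 Gata3KO cells, 35.5% lay in 1 cell, and without the top cell of each library the log2 ratio was 1.98. With NF-kappaB genes used to cluster, the collagen-rich cells fell in 1 cluster with the cycling cells with Pf4 and Mrc1. In that joint cluster Nfkbia was at 1.26 and Tnfaip3 at 1.74. After thinning, Tnfaip3 in the collagen-rich cells was at 1.12. Early-response genes summed to 7356 CPM in Gata3KO and 5187 CPM in Wt here, and to 6306 CPM and 4720 CPM in the cycling cells with Pf4 and Mrc1. Their part in these results was not tested.

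The unnamed shallow cluster had Nfkbia at 669 CPM in Gata3KO and 404 CPM in Wt (0.73, 0.47 to 0.99). At resolution 1.2 the Nfkbia ratio of the matching cluster was -0.24. The intervals of Nfkbiz and Tnfaip3 included 0, and Relb and Sod2, each past 1.5-fold lower, had only 12 and 7 UMIs in Gata3KO. In this cluster 35.8% of 5741 tested genes passed 1.5-fold, 20.9% higher and 14.9% lower.

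Across cell states the 6 genes fell into 2 groups and 1 gene apart. Over 17 state and library levels, which share 2 libraries and differ in depth, log2 CPM of Nfkbia correlated with that of Nfkbiz at r = 0.91 and of Tnfaip3 at 0.88, and Nfkbiz with Tnfaip3 at 0.86. Relb and Traf1 correlated at 0.82. Both stood far above their next level in Wt mature dendritic cells (Relb 969 CPM against 131, Traf1 1806 CPM against 519), and r without that level was not computed. Between these groups r lay between 0.02 and 0.23, and Sod2 ranged from -0.48 with Traf1 to 0.26 with Nfkbia. Among 5413 genes compared, Dusp2, a phosphatase of MAP kinases, came closest to Nfkbia (0.92), Nfkbiz (0.93) and Tnfaip3 (0.94). Closest to Relb was Birc2, a ubiquitin ligase of the pathway, at 0.96, closest to Traf1 was Ccnd2, a cell-cycle cyclin, at 0.90, and closest to Sod2 was Esd, an esterase, at 0.94.

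The members' wider pathway, described by gene lists in pooled monocytes and macrophages, showed no direction common to all lists. Counting every measured gene at any ratio, 3 kinases and adaptors were higher in Gata3KO and 19 lower, and 1 subunit was higher and 4 lower. Other target genes ran the other way, with 18 higher and 9 lower. Receptors and ligands had 9 higher and 6 lower, and inhibitors and feedback regulators 11 and 10. In this class 4.85% of 5882 tested genes passed 1.5-fold higher and 7.68% lower. Of 21 measured inhibitors and feedback regulators, 0 passed 1.5-fold higher and 3 passed lower in Gata3KO, namely Traf1, Tnip3, an A20-binding protein (19.0 CPM in Gata3KO and 50.8 in Wt, -1.42), and Nfkbie, which encodes IkappaB-epsilon (25.3 and 49.2 CPM, -0.96). The highest ratios among them belonged to Nfkbia and, with close values, Tnfaip3 and Zc3h12a, an RNase that degrades inflammatory transcripts (49.3 and 34.3 CPM, 0.52), and the list median was 0.07. None of the 5 subunits passed, with a median of -0.25. Nfkb1 was 92.1 CPM in Gata3KO and 127 CPM in Wt (-0.46), and Rel was 118 CPM and 107 CPM (0.14).

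Of 22 kinases and adaptors, 0 passed higher and 3 lower, with a median of -0.23: Traf1, Birc2 (18.0 CPM in Gata3KO and 33.2 in Wt, -0.88) and Map3k14, the kinase of the non-canonical pathway (20.5 and 32.0 CPM, -0.64). Of 15 receptors and ligands that feed the pathway, 2 passed higher, Il1b (261 CPM in Gata3KO and 153 in Wt, 0.77) and Tnfsf9 (40.1 and 22.6 CPM, 0.83), and 1 lower, Cd40 (26.0 and 65.4 CPM, -1.33), with a median of 0.26. Cd40 is the receptor through which T cells stimulate antigen-presenting cells, and Il1b encodes interleukin 1 beta.

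Of 27 other target genes, 7 passed higher and 4 lower, with a median of 0.35 against 0.04 for all genes tested. Higher were the neutrophil-attracting chemokine Cxcl1 (82.5 CPM in Gata3KO and 27.4 in Wt, 1.59) and the survival gene Ier3 (518 and 211 CPM, 1.30), and lower was Irf1, an interferon-responsive transcription factor (59.6 and 147 CPM, -1.30). Within Cxcl2-Arg1 macrophages the same list had 0 of 28 past 1.5-fold higher and 11 lower, with a median of -0.34, where 13.1% of all tested genes were higher and 10.5% lower. In Gpnmb macrophages it had 4 of 21 higher and 1 lower, with a median of 0.11, where 3.41% of all tested genes were higher and 5.63% lower. In Plac8-Ly6c2 phagocytes it had 3 of 28 higher and 5 lower, with a median of -0.11, where 11.0% of all tested genes were higher and 13.3% lower. Thus none of the 3 clusters had a median as high as the pooled 0.35. In cycling cells with Pf4 and Mrc1, outside the class, the list had 16 of 25 higher and 1 lower, with a median of 0.81, where 13.4% of all tested genes were higher and 11.9% lower. Of 19 early-response genes in the pooled class, 5 passed higher and 1 lower (median 0.38), among them Dusp1 (551 CPM in Gata3KO and 258 in Wt, 1.10).

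**Figure D4:**
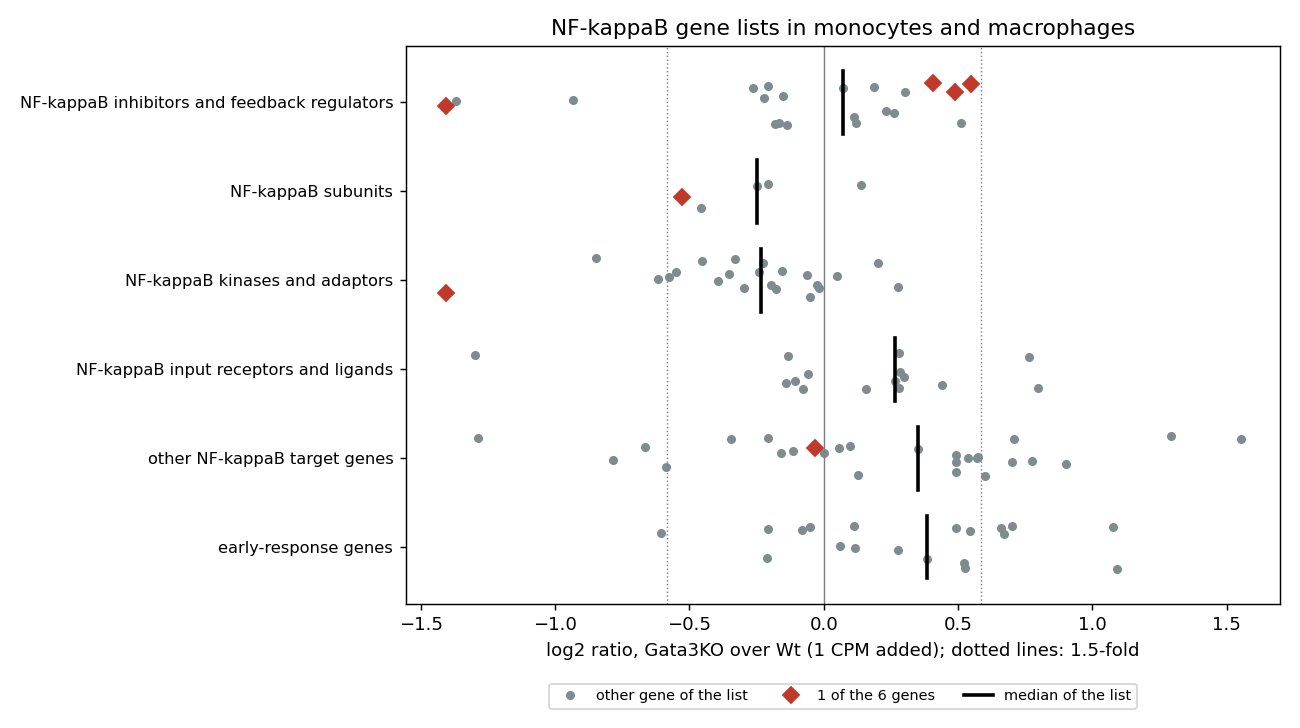
Log2 ratio of Gata3KO over Wt (1 CPM added) for each measured gene of 6 lists in monocytes and macrophages; diamonds are the 6 genes, bars are list medians and dotted lines mark 1.5-fold. Traf1 at -1.41 stands on 2 lists, Nfkbia, Nfkbiz and Tnfaip3 sit between 0.41 and 0.55 below the line, and the medians run between -0.25 for the subunits and 0.38 for the early-response genes.

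Most barcodes of both libraries exceeded the mitochondrial limit and were left out. In them Nfkbia was 687 CPM in Gata3KO and 337 CPM in Wt (1.03, 0.96 to 1.09) and Tnfaip3 was 125 CPM and 51.1 CPM (1.29, 1.12 to 1.46). Nfkbiz was 177 CPM in Gata3KO and 108 CPM in Wt (0.72, 0.59 to 0.84), and Traf1 was 79.4 CPM and 128 CPM (-0.69, -0.83 to -0.55). In these barcodes Nfkbia, Nfkbiz and Tnfaip3 had the direction of the pooled class with larger ratios, and Traf1 the same direction with a smaller one. Over every deposited barcode Nfkbia was 712 CPM in Gata3KO and 388 CPM in Wt (0.87, 0.83 to 0.92). There 3 of the 6 genes, Nfkbia, Nfkbiz and Tnfaip3, passed 1.5-fold higher and 2, Relb and Traf1, lower, and of 6031 tested genes 5.39% were higher and 7.08% lower.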

How the data were processed

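The submitters deposited 1 matrix of UMI counts (genes by cell barcodes) for each library, and the values used here are those deposited raw counts. The tools named in the submitters' processing notes are R 3.6.1, Seurat 3.0.2 and Cell Ranger 3.0.1, and the build is mm10; what each did is not given in the sources used here. From the counts, barcodes below 500 UMIs or 200 genes, or above 10% mitochondrial UMIs, were dropped. Scaled, log-transformed values of 2000 variable genes, without the 6 genes and other listed genes (112 in all), gave 30 principal components, a graph of 15 neighbours and Leiden clusters at resolution 0.6 (Python 3.11.15, scanpy 1.11.5, leidenalg 0.10.2), named from 18 marker lists. The cell-cycle cluster and the Cd209a cluster were split at resolution 1.2 after their values had been seen.

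UMIs were summed per library and cell state and given as CPM with exact Poisson intervals. Ratios have exact conditional binomial intervals and shares have Clopper-Pearson intervals, all at 95% and for counting error only, and no test was run, since each genotype has 1 library and cells are not replicates. A gene was measured at 20 CPM or more in 1 library and called past 1.5-fold with 1 CPM added. Cells were thinned to 2000 UMIs for shares. Likeness is Pearson's r of log2(CPM + 10) over levels of states with at least 20 cells, among genes with at least 50 CPM in 1 of them and 100 UMIs in all. Named genes were the 6 genes, the up to 3 highest and 3 lowest ratios of each list and the genes nearest each member; the genes named with Plac8-Ly6c2 phagocytes were chosen after their values were seen. Of the 13289 genes, 13170 matched a GENCODE M21 name. Members and lists were chosen with earlier results of these data known. Scrublet called 4 of 650 Gata3KO cells and 1 of 990 Wt cells as doublets, and these calls were used only as an alternative; under a caller with so few calls, doublets cannot be taken as removed. On simulated counts for 5791 genes, 67 of 67 genes changed 1.5-fold were recovered, and 95.3% of the intervals contained the value simulated. Neither figure was broken down by cell state, and simulated counts cannot show how far libraries of the same genotype differ. How often a gene changed 1.5-fold would pass the call used here, with 1 CPM added, is not given by the recovered count.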

Additional observations from a re-analysis of the deposited data

Results flagged for a closer look

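The log2 ratios of Gata3KO over Wt of Nfkbia and Tnfaip3 ran in opposite directions in different cell states past 1.5-fold, and the difference between states was not tested. Nfkbia was at 0.73 in the unnamed shallow cluster, 1.05 in the cycling cells with Pf4 and Mrc1 and 2.14 in the collagen-rich cells, but at -0.92 in the Cd209a dendritic cells. Tnfaip3 was at 1.69 in the cycling cells with Pf4 and Mrc1 and at 3.13 in the collagen-rich cells, but at -0.70 in the Cxcl2-Arg1 macrophages.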

How the results depend on the processing

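No paired analysis was possible because each genotype has 1 library, and for the same reason no replicate could be left out. Over 16 alternatives in monocytes and macrophages (1 CPM added unless stated), Traf1 was lower in Gata3KO in all, between -1.48 and -0.71, Relb lower in all, between -1.36 and -0.19, and Nfkbiz higher in all, between 0.09 and 0.55. Nfkbia and Tnfaip3 were higher in 15 of 16 and lower as the mean of the 3 within-cluster ratios (-0.06 and -0.23), and Sod2 took both signs. The number of the 6 genes past 1.5-fold higher, 0 in the report, was 1 with every cell weighted alike, after thinning, with the top cell of each library left out, at resolution 0.3 and with NF-kappaB genes used to cluster, and 2 over all kept cells and in the matching clusters when every deposited barcode was clustered. The number lower, 1 in the report, was 2 over all kept cells, at resolutions 0.3 and 1.2 and under the strictest cell filter (1000 UMIs, 5% mitochondrial). Leaving out dendritic cell markers, leaving out top cells and taking the Cd209a cluster whole were chosen after seeing the data.

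At resolution 0.3 Cxcl2-Arg1 macrophages merged with Gpnmb macrophages and the cycling cells with Pf4 and Mrc1. In the merged cells Nfkbia was at 0.45 and Tnfaip3 at 0.38. In the Cxcl2-Arg1 cluster Nfkbia was below 0 in the other 11 alternatives, between -0.72 with cells carrying dendritic cell markers left out and -0.16 with up to 20% mitochondrial UMIs. No matching cluster was found over every barcode. Under the strictest filter a matching cluster was found, but it had fewer than 20 cells of a library, so no ratio was given. In Cd209a dendritic cells Nfkbia turned to 1.14 with the cluster taken whole, 1.16 at resolution 0.3, 0.90 with up to 20% mitochondrial UMIs and 0.90 over every barcode, and Tnfaip3 to 0.67, 0.71, 0.68 and 0.64, and to 1.22 after thinning. Nfkbia in the unnamed shallow cluster turned to -0.24 at resolution 1.2; the cause was not tested.

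For the lists, a filter of 100 CPM gave 0 inhibitors, 0 kinases and adaptors and 0 receptors and ligands lower, 1 receptor or ligand higher and 1 other target lower. No filter (0 CPM) gave 7 other targets and 3 early-response genes lower. As means of the 3 within-cluster ratios, 1 receptor or ligand was higher, 2 other targets were higher and 2 lower, and 2 early-response genes were higher and 0 lower. The list median changed sign in 1 alternative for the inhibitors and in 1 for the other targets, and in 0 for the remaining lists. In states with few UMIs of a gene, depth limits the ratio to wide intervals.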
